A study of Rattus norvegicus with 5 samples.

Results

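The genes described here are 37 interferon-stimulated genes of the rat, measured in tumours that C6-L cells, a line of the rat glioma C6, formed as xenografts in mice. Each was found on the array through the RefSeq accession of its probes, and the brightest of a gene's probes stood for it, so that 33 of the 37 were matched among the 15442 genes that could be named on the array. Gbp1, Gbp4, Xaf1 and Herc6 had no matching probe and were not analysed here. The study asked how expression in a gamma-irradiated primary tumour differs from a non-irradiated one, and how metastatic lung nodules differ from the irradiated primary tumour. All hosts were BALB/c nu/nu nude mice, labelled as 6 weeks old. The 3 metastatic lung nodules and the 1 irradiated primary tumour were taken 6 weeks after irradiation, and the 1 non-irradiated primary tumour 6 weeks after xenografting. Nude mice as a strain have no functional thymus and few mature T cells, a known limit of such hosts. Each primary group is a single sample on a single array, and no label ties a nodule to a mouse, so 1 host may have borne several, and the p-values below measure only the spread between these nodules.

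Interferons are secreted proteins that cells release when they sense viral or misplaced nucleic acid. Type I interferons bind the receptor IFNAR and, through the kinases JAK1 and TYK2, activate a complex that includes STAT2 and IRF9 and binds the interferon-stimulated response element (ISRE) in promoters. Interferon gamma, made mainly by T and NK cells, acts through another promoter element, the gamma-activated site (GAS), and both routes induce antiviral enzymes, guanylate-binding GTPases, chemokines and more of the pathway's own sensors and transcription factors.

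The promoters of these genes can be read from RefSeq (build GRCr8), whose table held 250 bases before the start for 29 of the 37 genes. Letters of an ISRE core, GAAANNGAAA on either strand, occurred in 18 of the 29 (62.1%), against 3.41% of the 33469 promoters in the table. Letters of a GAS core, TTCNNNGAA, which reads the same on both strands, occurred in 9 of the 29 (31.0%), against 7.67% of all. Copies that overlap each other were each counted as a copy. On that count 5 genes held at least 2 ISRE copies, 5 held both motifs and 7 held neither. A match is a description of the letters and not a shown binding site. The stretches below belong to the 9 genes that changed in the nodules against either primary and whose promoter held ISRE letters. They are printed because they place the core, in capitals, in the promoters of the genes that carry the results. Each reads 5′ to 3′ on the strand of its gene.
Ifit3: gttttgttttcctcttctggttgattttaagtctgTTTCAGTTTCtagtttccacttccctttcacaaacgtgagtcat
Oas1a: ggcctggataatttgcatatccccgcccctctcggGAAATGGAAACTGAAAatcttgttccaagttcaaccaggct
Irf7: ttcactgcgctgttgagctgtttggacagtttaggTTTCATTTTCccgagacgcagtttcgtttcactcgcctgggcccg
Rsad2: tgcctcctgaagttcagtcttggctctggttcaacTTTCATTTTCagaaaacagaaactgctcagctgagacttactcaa
Ifi44: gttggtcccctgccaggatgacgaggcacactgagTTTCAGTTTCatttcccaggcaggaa
Gbp2: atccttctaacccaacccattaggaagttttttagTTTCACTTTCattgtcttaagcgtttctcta
Gbp5: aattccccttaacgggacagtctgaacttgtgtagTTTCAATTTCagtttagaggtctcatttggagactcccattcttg
Cxcl10: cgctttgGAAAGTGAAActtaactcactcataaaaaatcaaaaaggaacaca
Parp14: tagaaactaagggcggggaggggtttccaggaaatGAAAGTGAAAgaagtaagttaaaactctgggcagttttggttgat
In the order printed, these stretches lie at chr1:241527247-241527325 (Ifit3, plus strand), chr12:41330390-41330465 (Oas1a, plus), chr1:205800048-205800127 (Irf7, minus), chr6:48788223-48788302 (Rsad2, minus), chr2:243303841-243303901 (Ifi44, minus), chr2:234005661-234005726 (Gbp2, plus), chr2:233910908-233910987 (Gbp5, plus), chr14:15988816-15988867 (Cxcl10, plus) and chr11:78408023-78408102 (Parp14, plus). The core began 44 bases before the start of Ifit3, 26 before Ifi44, 31 before Gbp2, 56 before Gbp5, 69 before Irf7, 76 before Parp14, 147 before Rsad2 and 243 before Cxcl10. Oas1a held 2 overlapping copies, 41 and 35 bases before its start, and its neighbour in the family, Oas1b, held the same letters 59 and 53 bases before its own. Of the genes that were lower in the nodules than in the irradiated primary, 6 of the 7 with a promoter in the table held ISRE letters, and of the tested genes without such a call, 8 of 16.

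**Figure D1:**
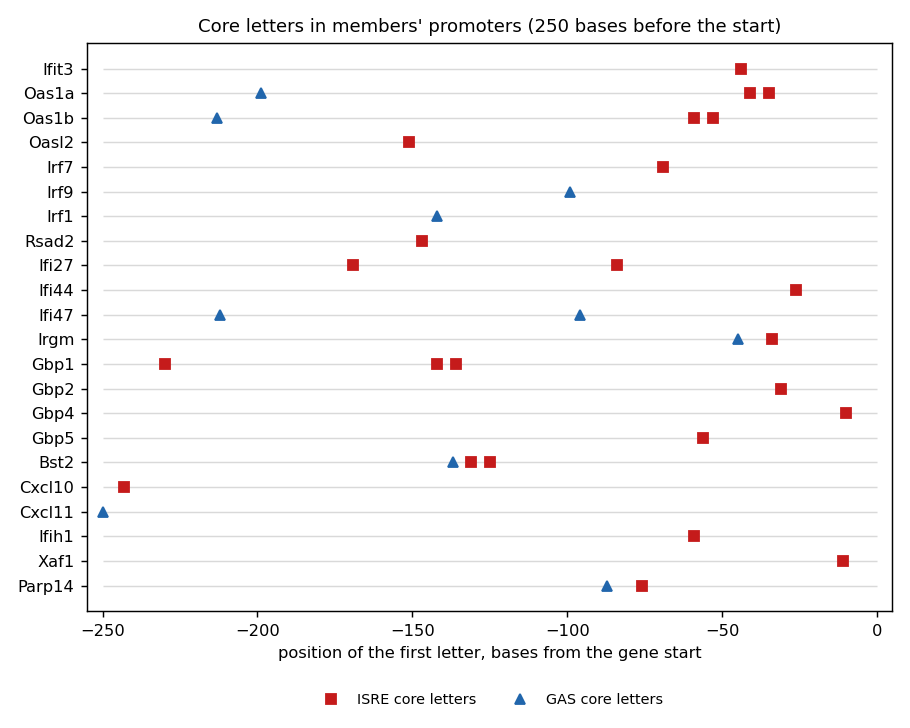
Position of the first letter of each ISRE core (squares) and GAS core (triangles) in the 250 bases before the start of the 22 genes with either motif, in bases from the start. The ISRE letters lay from 243 bases (Cxcl10) to 10 bases (Gbp4) before the start.

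Expression was read on 1-colour Agilent arrays, and a level below is the log2 signal of a probe minus the 75th percentile of its array, so that 0 is the brightness of a probe at that percentile. Levels are compared only within a gene. Between 69.8 and 73.5% of the spots of an array were well above background, 0 were saturated, and the 5 arrays shared 1 slide, with the nodules in 1 row and both primaries in the other, and the slide's rows cannot be told apart from nodule and primary. Of the 33 matched genes, 26 were well above background on all 5 arrays. Ifit1 and Cxcl9 were not well above background on any array, and Bst2 was so in nodules 2 and 3 only, so these 3 were not tested and 30 were. The limma test across all 18899 features took its error from the 3 nodules and assumed that a lone primary varies as they do. The probes are rat and the host is mouse, and the part of host RNA in any signal was not tested. In such bulk tissue, fewer cells of a type and less RNA per cell cannot be told apart.

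A subset of the interferon-stimulated genes was lower in the lung nodules than in the irradiated primary tumour. By limma (adjusted p under 0.05 over all features), 10 of the 30 tested genes fell in the nodules, where 2.81% of all features did, and 0 rose, where 0.91% of all features did. The 10 were Isg15, Usp18, Cxcl10, Cxcl11, Rsad2, Rtp4, Ifi44, Ifit3, Gbp2 and Gbp5, and each differed by more than 2-fold. Ifit3, Rsad2 and Cxcl11 were not well above background in any nodule and entered the test through the primaries where they are bright. Of the 26 genes well above background on all 5 arrays, fitted with only such probes, 7 fell, where 2.42% of features did. At an unadjusted p under 0.05, 17 of the 30 were lower and 0 higher. Of all features, 12.01% were lower and 22.0% passed in either direction. The median log2 difference of the 30 genes, nodules minus irradiated primary, was -0.80, beside 0.03 over all features, and in 24 of the 30 all 3 nodules lay below the irradiated primary, as in 31.8% of features. These calls rest on few arrays: without nodule 1 all 10 were kept, without nodule 3 only Isg15, Cxcl10 and Cxcl11 were, and without nodule 2 none of the 10 was, with adjusted p from 0.0558 to 0.156 and 16 of the 30 genes still at an unadjusted p under 0.05, as were 14.2% of features. Ifi44, Gbp2, Usp18 and Gbp5 also lost the call without the intensity trend, the first pair under median scaling too, and Ifi44 under quantile normalization. Skeletal muscle markers were lower in the nodules as well, with a summed signal of 5.84 to 6.68 against 136 in the irradiated and 31.3 in the non-irradiated primary, and their part in the result was not tested.

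Set against the non-irradiated primary, the nodules were lower in some of these genes and higher in others. Isg15, Mx2, Cxcl10 and Rtp4 fell in the nodules, and Cxcl11 passed the same test while not well above background in either group, so its call is no measured fall. With it, 5 of 30 were called lower, where 8.84% of all features were. Of the others, Oas1a, Irf7, Irf9 and Parp14 rose, 4 of 30 where 9.74% of all features rose. With probes well above background on all 5 arrays, 4 of 26 fell and 4 rose, where 9.13% and 10.5% of features did. The median log2 difference of the 30 was -0.16, beside 0.04 over all features. Without nodule 1 all 9 calls were kept, without nodule 3 only those of Irf7 and Oas1a, and without nodule 2 none, with adjusted p from 0.0575 to 0.135 and 11 of the 30 genes at an unadjusted p under 0.05, where 26.4% of features were, against 15 of 30 and 36.9% of features with all nodules. Median scaling or omitting the intensity trend ended the calls of Mx2, Cxcl10 and Parp14, and normexp background correction that of Cxcl11. The nodules enter both comparisons.

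Between the primaries, each a single array with no test, 17 of 30 genes were at least 2-fold higher in the irradiated tumour, where 9.31% of 18437 features were. Ifit3, Oasl and Cxcl11 were among them and were well above background in the irradiated primary alone. With probes well above background on all 5 arrays the count was 13 of 26 (6.97% of features), and under normexp background correction, which adds 50 to each signal, 12 of 30 (4.39% of features). None was at least 2-fold lower, where 7.13% of features were. The median log2 difference, irradiated minus non-irradiated, was 1.24, beside 0.02 over all features. Of the 30 genes, 22 had their highest level in the irradiated primary, 7 in the non-irradiated primary and 1, Irf9, in the mean of the nodules. No share over all features was computed for this order. Ifit3, Oasl and Cxcl11 entered only through the irradiated primary, so the filter set their place in it.

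**Figure D2:**
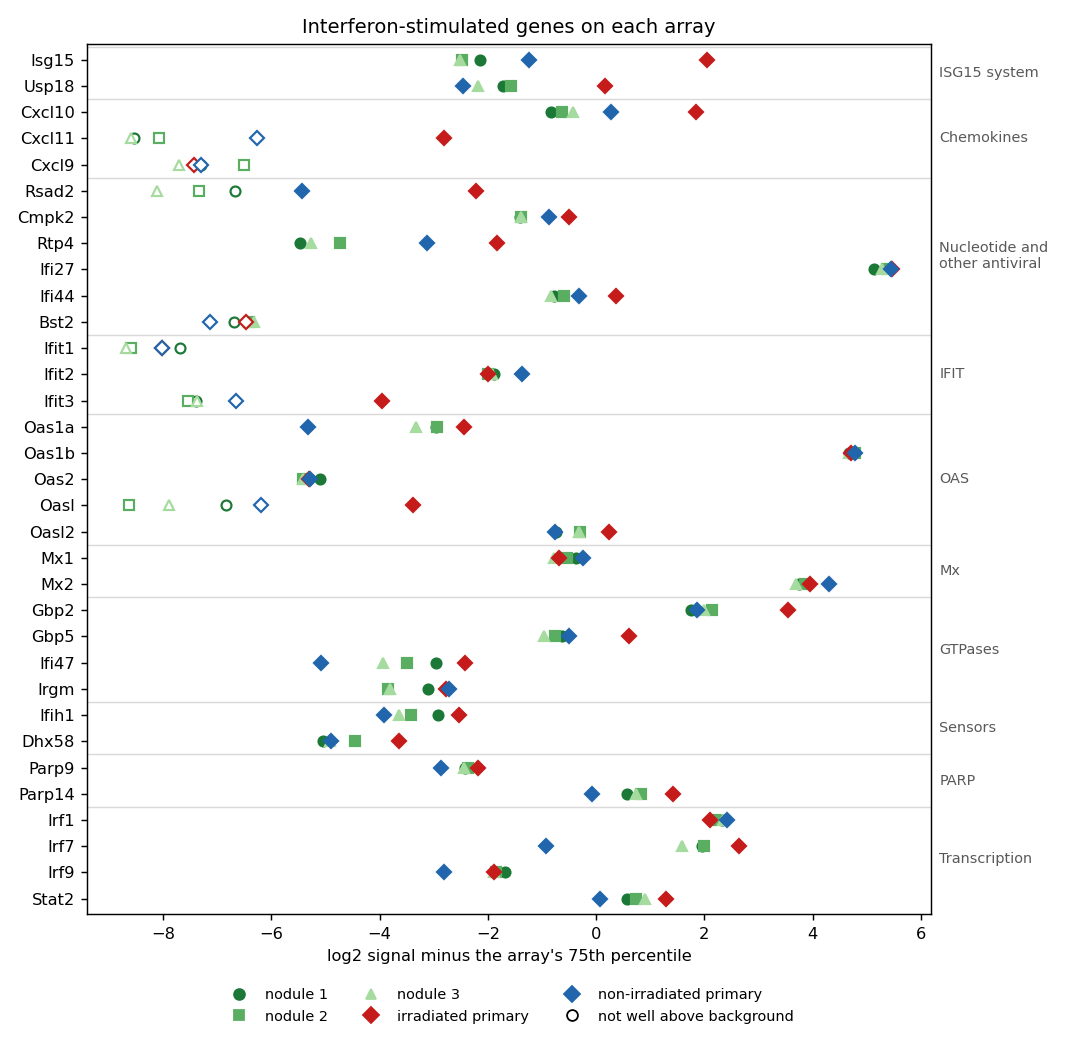
Level of each of the 33 matched genes on each array (log2 signal minus the array's 75th percentile), with nodules as green circles, squares and triangles, the irradiated primary in red, the non-irradiated primary in blue, and open symbols where the probe was not well above background. The irradiated primary lies to the right of the nodules for Isg15 (2.04 against -2.15 or less), Rsad2, Cxcl11 and most other genes, while Oas1b, Oas2 and Ifi27 lie close together.

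Isg15 and Usp18 fell in the nodules against the irradiated primary. Isg15, a ubiquitin-like protein that interferon induces strongly and that is attached to other proteins, stood at levels of -2.15, -2.48 and -2.51 in nodules 1, 2 and 3, at 2.04 in the irradiated primary and at -1.24 in the non-irradiated primary. The irradiated primary was far above all other samples, and the nodules were the lowest without overlap. The irradiated primary was 21.4-fold above the nodule mean, a log2 difference of -4.42 ± 0.21 (SE) for nodules minus primary (limma adjusted p = 0.0066), and the non-irradiated primary was 2.21-fold above it, a difference of -1.14 ± 0.21 (adjusted p = 0.0296). The irradiated primary exceeded the non-irradiated one 9.72-fold. Usp18, the protease that removes ISG15 from proteins and damps signalling at IFNAR, stood at -1.73, -1.58 and -2.18 in the nodules, at 0.16 in the irradiated primary and at -2.46 in the non-irradiated one. Here both the nodules and the non-irradiated primary were low. The irradiated primary was 3.96-fold above the nodules (log2 difference -1.98 ± 0.28, adjusted p = 0.0400) and 6.13-fold above the non-irradiated primary. A dimmer second Usp18 probe gave -2.35 against the irradiated primary. Its difference from the non-irradiated primary was -0.26 where the brighter probe gave 0.63, so that direction is not settled. Ube2l6, the conjugating enzyme for ISG15 and a gene outside the 37, was not called against the irradiated primary (-0.35 ± 0.34, adjusted p = 0.608).

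Of the 3 chemokines that draw cells bearing the receptor CXCR3, such as activated T and NK cells, Cxcl10 was measured on every array. Its levels were -0.83, -0.62 and -0.43 in the nodules, 1.84 in the irradiated primary and 0.27 in the non-irradiated primary. Both primaries lay above all 3 nodules. The irradiated primary was 5.53-fold above the nodules (log2 difference -2.47 ± 0.19, limma adjusted p = 0.0130), the non-irradiated one 1.86-fold (-0.90 ± 0.19, adjusted p = 0.0422), and the irradiated primary 2.97-fold above the non-irradiated one. Cxcl11 was well above background in the irradiated primary alone, with levels of -8.54, -8.07 and -8.60 in the nodules, -2.81 in the irradiated primary and -6.26 in the non-irradiated one. For such a gene a floored fold is given, which sets the bright mean against a raised dim group. Each array of that group is raised to its own lowest level well above background, unless the probe lies higher. The floored fold is no strict lower bound, because some probes not well above background lie above that level. In the non-irradiated primary, for example, that level was -6.12, and Plscr1 at -5.20 was not well above background. On that basis Cxcl11 was 14.1-fold higher in the irradiated primary than in the nodules (adjusted p = 0.0111). The adjusted p beside a floored fold, here and below, comes from limma on the unraised values, dim ones included. It does not test that fold. By the floored fold, Cxcl11 was also 9.95-fold higher in the irradiated than in the non-irradiated primary. Its 2 spots on the irradiated array disagreed, with processed signals of 890.6 and 47.3, an 18.8-fold gap. Taken alone the spots gave floored folds of 61.1 and 3.24 over the nodules and of 43.2 and 2.29 over the non-irradiated primary. Among 130 spot pairs of these genes that were well above background, that pair had an SD of 2.99 on the log2 scale and the next widest pair, Ifih1 in the non-irradiated primary, 0.41. Cxcl11 also passed the test against the non-irradiated primary (adjusted p = 0.0317), but it was not well above background in either group, so no fold is given. Cxcl9, the chemokine most tied to interferon gamma, was not well above background on any array, with levels from -7.71 to -6.51.

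Antiviral effectors outside the large families also differed, most of all Rsad2. Rsad2 (viperin), a radical SAM enzyme that makes a chain-terminating nucleotide, stood at -6.67, -7.33 and -8.10 in the nodules, none of them well above background, at -2.22 in the irradiated primary and at -5.44 in the non-irradiated primary. The irradiated primary was 21.2-fold above the nodules by the floored fold (limma adjusted p = 0.0309 on the unraised values). It was 9.32-fold above the non-irradiated primary. The floored folds rest on the background-subtracted signals, and normexp, whose added 50 shrinks the differences of dim genes, gave smaller ones. Its log2 differences from the irradiated primary were -2.17 for Rsad2, -2.06 for Cxcl11, -1.14 for Ifit3 and -1.23 for Oasl. For Rsad2 the floored fold of the non-irradiated primary over the nodules was 2.27, which did not pass the test (adjusted p = 0.0933, and 0.0497 under quantile normalization). Cmpk2, the nucleotide kinase that supplies the same reaction and lies next to Rsad2 in mammalian genomes, stood at -1.40, -1.38 and -1.39 in the nodules, -0.50 in the irradiated primary and -0.87 in the non-irradiated one. The nodules were nearly identical and below both primaries, but the differences of -0.89 ± 0.14 (adjusted p = 0.0502) and -0.52 ± 0.14 (adjusted p = 0.0685) missed the threshold. The first passed under normexp (adjusted p = 0.0420) and with the mean of a gene's probes (0.0481). Rtp4, an interferon-induced receptor transporter protein, stood at -5.48, -4.72 and -5.27 in the nodules, -1.83 in the irradiated primary and -3.13 in the non-irradiated one. It fell in the nodules against both: the irradiated primary was 10.04-fold higher (log2 difference -3.33 ± 0.37, adjusted p = 0.0256) and the non-irradiated primary 4.08-fold higher (-2.03 ± 0.37, adjusted p = 0.0290), with -1.97 and -1.06 under normexp.

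Ifi44, an interferon-induced cytoplasmic protein, had levels of -0.78, -0.60 and -0.84 in the nodules, 0.37 in the irradiated primary and -0.32 in the non-irradiated one. All nodules lay below both primaries, and the irradiated primary was 2.16-fold above them (log2 difference -1.11 ± 0.16, limma adjusted p = 0.0424), while the difference from the non-irradiated primary was -0.42 ± 0.16 (adjusted p = 0.136). Ifi27, a small interferon-induced membrane protein, lay between 5.13 and 5.47 on all 5 arrays and passed neither test. Bst2 (tetherin), which holds budding viruses on the cell surface, had levels from -7.14 to -6.32 at the edge of detection, with 1 spot an array.

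The IFIT family of interferon-induced genes split by member. Ifit3 stood at -7.39, -7.53 and -7.38 in the nodules, none well above background, at -3.96 in the irradiated primary and at -6.64, also not well above background, in the non-irradiated one. Ifit3 was thus measured in the irradiated tumour alone. Its floored folds there were 6.32 over the nodules (limma adjusted p = 0.0188 on the unraised values) and 4.47 over the non-irradiated primary. Ifit2, by contrast, stood at -1.89, -2.0 and -1.92 in the nodules, -1.99 in the irradiated primary and -1.37 in the non-irradiated one. Its nodules bracketed the irradiated primary (0.06 ± 0.16, adjusted p = 0.873), and its difference of -0.57 ± 0.16 from the non-irradiated primary did not pass (adjusted p = 0.0761). Ifit1 was not well above background on any array, with levels from -8.69 to -7.68.

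The OAS family makes 2′-5′ oligoadenylate, which activates the RNA-degrading enzyme RNase L. Oas1a stood at -2.96, -2.93 and -3.32 in the nodules, -2.43 in the irradiated primary and -5.33 in the non-irradiated one. The nodules lay near the irradiated primary (log2 difference -0.64 ± 0.26, limma adjusted p = 0.248) and 4.77-fold above the non-irradiated primary (2.25 ± 0.26, adjusted p = 0.0144, with a difference of 0.97 under normexp). The irradiated primary was 7.43-fold above the non-irradiated one. Oasl, an OAS-like protein, stood at -6.84, -8.62 and -7.88 in the nodules and -6.18 in the non-irradiated primary, none well above background, and at -3.38 in the irradiated primary. The floored folds of that primary were 9.48 over the nodules and 6.71 over the non-irradiated primary. With nodules 1.78 apart the test against it missed the threshold (adjusted p = 0.0554), which it passed under quantile normalization (0.0488) and normexp (0.0165). Oasl2 stood at -0.74, -0.30 and -0.31 in the nodules, 0.25 in the irradiated primary and -0.75 in the non-irradiated one, and passed neither test (adjusted p = 0.179 and 0.397). Oas1b lay between 4.66 and 4.78 on all arrays (1 spot an array) and Oas2 between -5.42 and -5.09, and the sign of their differences from the irradiated primary turned with the scaling of the arrays. Thus Oas1a and Oas1b, whose promoters hold the same ISRE letters, differed in their values: Oas1b spanned 0.12 over the 5 arrays and Oas1a 2.89. The OAS1 genes of the rat are close copies, and the sharing of signal between their probes was not tested.

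The Mx proteins, dynamin-like GTPases that block viral replication, lay close together in all samples. Mx1 stood at -0.38, -0.53 and -0.77 in the nodules, -0.68 in the irradiated primary and -0.25 in the non-irradiated primary and passed neither test (limma adjusted p = 0.773 and 0.321). Mx2 stood at 3.75, 3.85 and 3.69 in the nodules, 3.95 in the irradiated primary and 4.29 in the non-irradiated primary. All nodules lay below both primaries. Mx2 fell by 0.53 ± 0.12 on the log2 scale against the non-irradiated primary, which was 1.44-fold higher (adjusted p = 0.0477), and its difference from the irradiated primary was -0.19 ± 0.12 (adjusted p = 0.440). Like that of Cxcl10, the call was also lost without the filter on dim probes (highest adjusted p of Mx2 over the processing settings 0.0982).

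Among the interferon-induced GTPases that attack the vacuoles of intracellular microbes, the guanylate-binding proteins Gbp2 and Gbp5 fell against the irradiated primary. Gbp2 stood at 1.75, 2.14 and 1.99 in the nodules, 3.55 in the irradiated primary and 1.86 in the non-irradiated one. The irradiated primary stood alone, 3.01-fold above the nodules (log2 difference -1.59 ± 0.18, limma adjusted p = 0.0283) and 3.22-fold above the non-irradiated primary, which lay within the nodules' range. Gbp5, which also promotes inflammasome assembly, stood at -0.63, -0.77 and -0.96 in the nodules, 0.60 in the irradiated primary and -0.51 in the non-irradiated one. Its irradiated primary was 2.62-fold above the nodules (-1.39 ± 0.18, adjusted p = 0.0365), its second probe gave -1.55, and it was 2.16-fold above the non-irradiated primary. Ifi47 spread widely, at -2.95, -3.50 and -3.93 in the nodules, -2.42 in the irradiated primary and -5.09 in the non-irradiated primary. The nodules lay between the primaries, with differences of -1.04 ± 0.42 (adjusted p = 0.249) and 1.63 ± 0.42 (adjusted p = 0.0602, but 0.0484 under median scaling and 0.0433 with the deposited matrix), and the irradiated primary was 6.35-fold above the non-irradiated one. Irgm stood at -3.10, -3.84 and -3.81 in the nodules and at -2.77 and -2.71 in the irradiated and non-irradiated primaries, with adjusted p = 0.291 and 0.164.

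The cytosolic RNA sensors did not pass either test. Ifih1 (MDA5), which binds long double-stranded RNA, stood at -2.92, -3.41 and -3.64 in the nodules, -2.53 in the irradiated primary and -3.92 in the non-irradiated one. Dhx58 (LGP2), its regulator, stood at -5.04, -4.46 and -4.91 in the nodules, -3.63 in the irradiated primary and -4.89 in the non-irradiated one. For both, the irradiated primary was the highest sample, and it was 2.63-fold (Ifih1) and 2.39-fold (Dhx58) above the non-irradiated primary. Their limma adjusted p values were 0.263 and 0.140 against the irradiated primary and 0.267 and 0.875 against the non-irradiated one. The poly-ADP-ribose polymerase family members Parp9 and Parp14, both induced by interferon, were highest in the irradiated and lowest in the non-irradiated primary. Parp14 stood at 0.57, 0.83 and 0.74 in the nodules, 1.43 in the irradiated primary and -0.07 in the non-irradiated one. The nodules lay between the primaries, 1.73-fold above the non-irradiated one (0.79 ± 0.15, adjusted p = 0.0336), with -0.71 ± 0.15 against the irradiated one (adjusted p = 0.0874). Parp9 stood at -2.42, -2.37 and -2.44 in the nodules, -2.18 in the irradiated primary and -2.87 in the non-irradiated primary and passed neither test (adjusted p = 0.511 and 0.132).

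Of the 4 transcription factors, Irf7 and Irf9 rose in the nodules against the non-irradiated primary, and none passed the test against the irradiated one. Irf7, the factor that amplifies type I interferon transcription, stood at 1.95, 1.99 and 1.59 in the nodules, 2.63 in the irradiated primary and -0.93 in the non-irradiated primary. The non-irradiated primary was far below every other sample. The nodules were 6.82-fold above it (log2 difference 2.77 ± 0.20, limma adjusted p = 0.00908) and the irradiated primary 11.8-fold, while nodules and irradiated primary differed by -0.79 ± 0.20 (adjusted p = 0.117). Irf9, the DNA-binding part of the ISRE complex, stood at -1.68, -1.85 and -1.89 in the nodules, -1.88 in the irradiated primary and -2.81 in the non-irradiated one. The irradiated primary lay within the nodules' range and the non-irradiated primary below it, with the nodules 2.00-fold higher (1.00 ± 0.18, adjusted p = 0.0297). Stat2, its partner, stood at 0.56, 0.74 and 0.91 in the nodules, 1.30 in the irradiated primary and 0.08 in the non-irradiated one. The nodules lay between the primaries, and neither difference passed (adjusted p = 0.168 and 0.0635). Irf1, a factor that interferon gamma induces, stood at 2.32, 2.20 and 2.34 in the nodules, 2.10 in the irradiated primary and 2.42 in the non-irradiated one. Its brighter probe gave -0.14 against the non-irradiated primary and its dimmer probe 0.28, and neither comparison passed (adjusted p = 0.440 and 0.462).

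**Figure D3:**
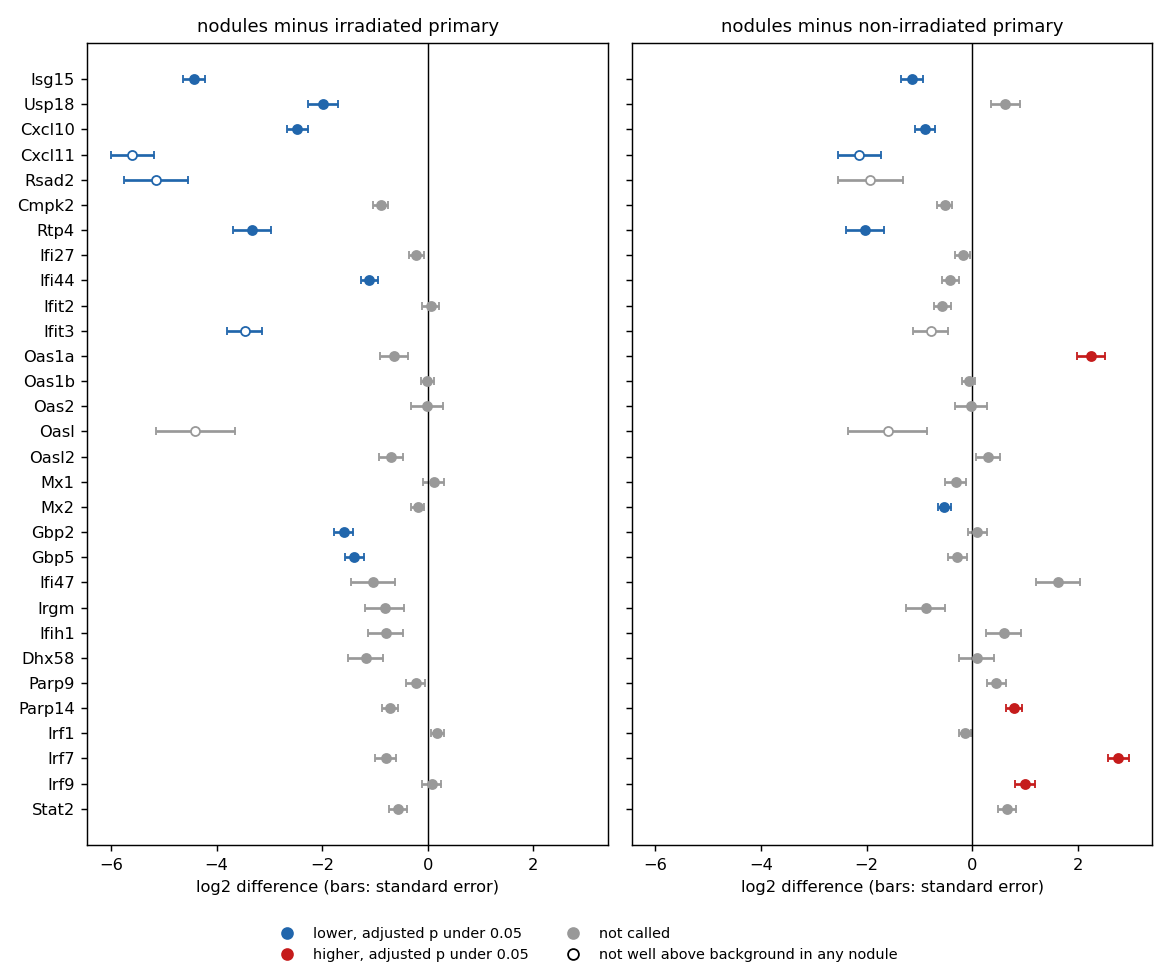
Log2 difference of the nodule mean (n = 3) from the irradiated primary (left) and the non-irradiated primary (right, 1 array each) for the 30 tested genes, with bars of 1 standard error, blue for lower and red for higher at a limma adjusted p under 0.05, and open symbols where no nodule was well above background. Most points on the left lie below 0, with 10 called lower, while on the right 5, with Cxcl11 dim in both groups, are called lower and 4, led by Irf7 at 2.77, higher.

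**Figure D4:**
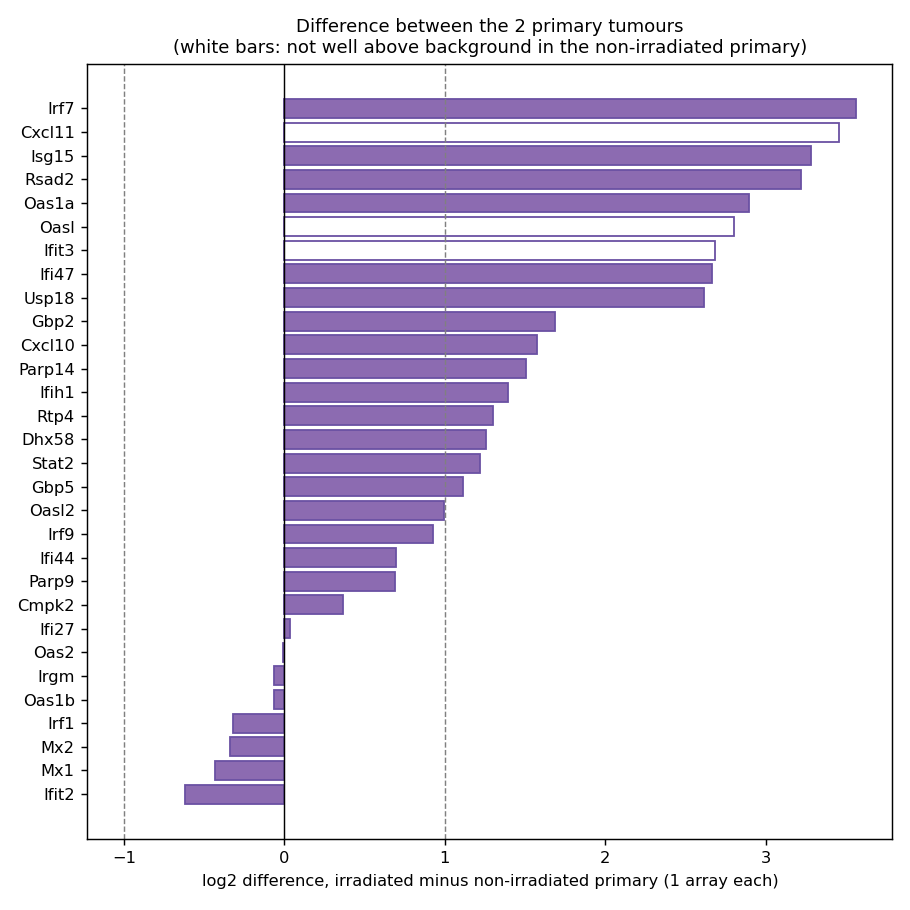
Log2 difference between the irradiated and the non-irradiated primary tumour (1 array each) for the 30 genes measured in either, in order of size, with white bars where the gene was not well above background in the non-irradiated primary and dashed lines at 2-fold. The differences run from -0.62 (Ifit2) to 3.56 (Irf7), and 17 bars pass 2-fold upward.

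The order of the groups therefore took several forms across these genes. Irf9, Oas1a and Irf7 had their lowest sample in the non-irradiated primary, with nodules near or somewhat below the irradiated one. Gbp2 and Usp18 had nodules and the non-irradiated primary low together and the irradiated primary above both. Isg15, Cxcl10 and Rtp4 ran from the nodules through the non-irradiated to the irradiated primary, each step past the test where the nodules enter it. Just short of 2-fold between the primaries lay Oasl2 (log2 difference 1.00, 1.996-fold) and Irf9 (0.93), and just past it Gbp5 (1.11) and Stat2 (1.22).

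The range of these genes over the 3 nodules had a median of 0.37 on the log2 scale, above the 0.31 over all features. It was under 0.5 in 21 of the 30. No share over all features was computed for that count or for the order of the nodules below. Only Oasl (1.78) and Rsad2 (1.43), both not well above background in any nodule, had a range of at least 1, which 9.22% of all features had. Nodule 3 was the lowest of the 3 in 14 genes and the highest in 4, nodule 2 the highest in 15 and the lowest in 6. The spots of a probe within an array, where well above background, had a median SD of 0.055 for these genes and 0.056 for all probes. An SD over spots and a range over nodules are unlike measures, so their sizes are not compared.

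**Figure D5:**
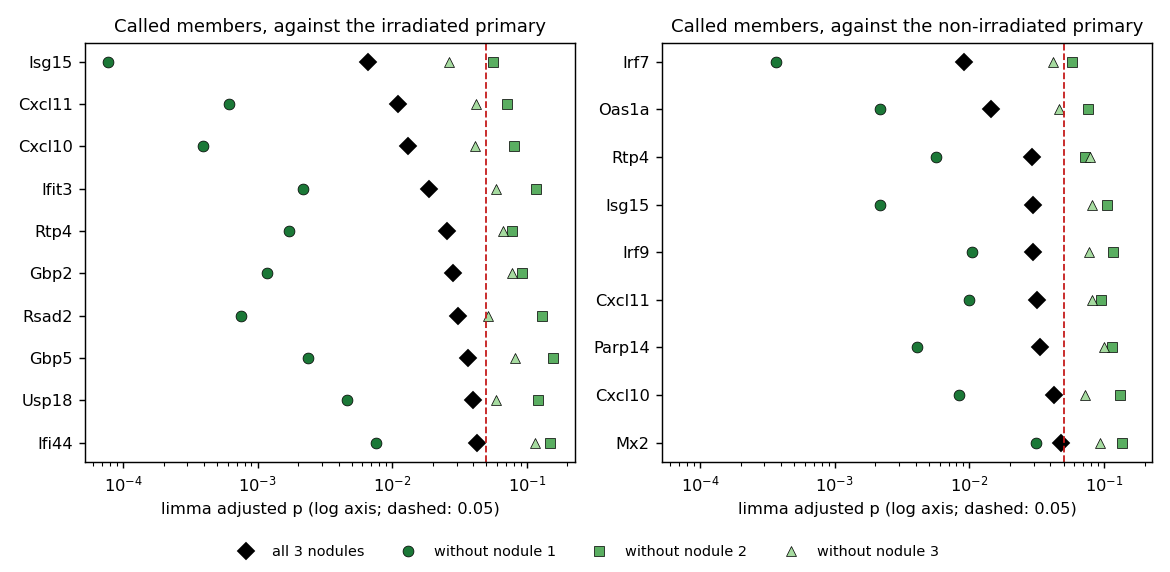
Limma adjusted p (log axis) of the 10 genes called against the irradiated primary (left) and the 9 called against the non-irradiated primary (right), with all 3 nodules (black diamonds) and with each nodule left out (green symbols), and the threshold of 0.05 dashed. Every symbol for the fit without nodule 2 lies to the right of the line, and every symbol for the fit without nodule 1 to the left.

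The rest of the interferon pathway, from a list of 112 other genes, had 78 genes on the array, of which 63 were tested and 15 were not well above background on any array. Against the irradiated primary 4 fell and 0 rose by limma at an adjusted p under 0.05, where 2.81% and 0.91% of all features did. At an unadjusted p under 0.05, 16 were lower and 3 were higher. Of all features, 12.01% were lower and 22.0% passed in either direction. Against the non-irradiated primary 9 of the 63 fell and 5 rose, where 8.84% and 9.74% of all features did. Between the primaries 8 of the 63 were at least 2-fold higher in the irradiated tumour and 2 at least 2-fold lower, where 9.31% and 7.13% of all features were. Most interferon ligands on the array could not be measured: Ifnb1, Ifng, Ifna2, Ifna5 and Ifnk were not well above background on any array. Ifna4 was detected on all 5 arrays, at levels from -3.38 to -2.77, and passed neither test (adjusted p = 0.938 and 0.350), and the probes of this family of close copies may share signal, which was not tested. Of the receptors, Ifngr1, a chain of the interferon gamma receptor, fell against the non-irradiated primary (log2 difference -0.72 ± 0.12, adjusted p = 0.0242), while Ifnar1 passed neither test (adjusted p = 0.200 and 0.883).

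Of the sensors and adaptors, Sting1 and Tlr3 were low in the nodules. Sting1, the adaptor of cytosolic DNA sensing, stood at -1.5, -1.37 and -1.82 in the nodules, 0.90 in the irradiated primary and 1.59 in the non-irradiated one. Tlr3, the endosomal receptor for double-stranded RNA, stood at -5.12, -4.60 and -4.81 in the nodules, -2.48 in the irradiated primary and -2.60 in the non-irradiated one. Both fell against both primaries, Sting1 with log2 differences of -2.46 ± 0.22 (limma adjusted p = 0.0158) and -3.15 ± 0.22 (adjusted p = 0.00903), and Tlr3 with -2.36 ± 0.29 (adjusted p = 0.0327) and -2.24 ± 0.29 (adjusted p = 0.0165). Tlr7, a receptor for single-stranded RNA, was not well above background in the non-irradiated primary. It was higher in the nodules by 1.39 ± 0.32 on the log2 scale (adjusted p = 0.0470), a difference that includes that dim value.

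Among the other effectors, Ifitm3, which blocks viral fusion in endosomes, stood at 0.36, 0.41 and 0.32 in the nodules, 2.25 in the irradiated primary and 1.38 in the non-irradiated one. It fell against both (-1.89 ± 0.12, limma adjusted p = 0.0091, and -1.02 ± 0.12, adjusted p = 0.0145), as did Ifi27l2b, a relative of Ifi27 (-2.11 ± 0.19, adjusted p = 0.0160, and -1.66 ± 0.19, adjusted p = 0.0144). The exonuclease Trex1 (-1.15 ± 0.16, adjusted p = 0.0182), the apolipoprotein L family member Apol9a (-0.87 ± 0.17, adjusted p = 0.0355), the ubiquitin ligase Trim26 (-0.63 ± 0.14, adjusted p = 0.0421) and Oas1h (-2.12 ± 0.36, adjusted p = 0.0253) fell against the non-irradiated primary and did not pass the test against the irradiated one. The nucleotide hydrolase Samhd1 (1.16 ± 0.26, adjusted p = 0.0452), the galectin Lgals9 (1.49 ± 0.27, adjusted p = 0.0285) and Oas1k (1.57 ± 0.28, adjusted p = 0.0278) rose there, also without a call against the irradiated one. Oas1h and Oas1k are relatives of Oas1a. Oas1h was not well above background in nodule 1, at -6.28, so its difference includes a dim value.

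Markers of other cells moved with some of these comparisons, and their part in the results was not tested. The muscle sum given above is of the linear signals of 13 markers in units of the array's 75th percentile, and all 13 were well above background in both primaries. By limma 11 of the 13 fell in the nodules against the irradiated primary and 10 against the non-irradiated one. Of all features, 2.81% and 8.84% fell. The 15 macrophage markers on the array summed to 54.2 to 64.9 in the nodules, 65.7 in the irradiated primary and 32.4 in the non-irradiated primary. The non-irradiated primary was thus the low sample in the sum, in which C1qa and C1qb are the brightest markers. Single markers did not all follow it: Cd163, Cx3cr1 and Cd14, and by little Cd68 and Mrc1, were highest in the non-irradiated primary. Of the 14 tested, 1 (Cx3cr1) rose and 0 fell against the irradiated primary, where 0.91% and 2.81% of all features did. Against the non-irradiated one 5 rose and 3 fell, where 9.74% and 8.84% of all features did. T-cell markers summed to 0.18 to 0.24 in the nodules, 0.26 in the irradiated and 0.20 in the non-irradiated primary. Of the 10 T-cell markers on the array, Cd3e, Cd3g, Cd4, Cd8a, Lck and Cd5 were not well above background on any array, Cd3d (-3.26 to -2.85) and Zap70 (-5.17 to -4.84) were so on all 5, and Cd8b in nodule 2 alone. Cd2 was so in the irradiated primary alone, at -4.64 against -8.75 to -8.14 elsewhere. NK-cell markers summed to 0.42 to 0.55 in the nodules, 0.60 in the irradiated and 0.46 in the non-irradiated primary. Ncr1, Klrd1, Klrb1a, Klrc1 and Prf1 were not well above background on any array, Klrk1 (-1.78 to -1.52) and Nkg7 (-3.25 to -2.34) were so on all 5, and Gzmb only in the irradiated primary, at -3.55. Lung epithelial markers summed to 72.4, 21.1 and 0.64 in nodules 1, 2 and 3, 0.81 in the irradiated and 2.06 in the non-irradiated primary, and cardiac markers to 53.6 in nodule 3 against 6.07 to 9.23 elsewhere. Of 12 glial and glioma markers 10 were measured, but Gfap and Olig2, genes of astrocytes and oligodendrocytes, were not well above background on any array.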

How the data were processed

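RNA of 5 tumour samples was hybridised to 1-colour Agilent rat arrays, 1 per sample, with RNA extraction and Cy3 labelling by Qiagen and Agilent kits, per the labels' protocols. The deposited intensity values are processed spot signals that Agilent Feature Extraction 11.0 background-subtracted, per the file headers. Per the file headers, that software also wrote the deposited spot flags, which are other values (0 or 1). The deposited matrix holds log2 values, and how the authors made it is not given in the sources used here; 0 columns of unknown samples were found.

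Outlier spots (0.603 to 0.865% per array) were left out, log2 signals of a probe's spots averaged, and each array scaled to its 75th percentile. Well above background means every usable spot of a probe carried that flag. Of 30367 probes, 18354 (60.4%) were named through RefSeq accessions. A feature was tested where every array of some group showed it well above background. The test was limma 3.58.1 (R 4.3.3), fitting a mean per group with intensity-trended eBayes, 2 residual degrees of freedom and Benjamini-Hochberg adjustment over 18899 features. The primaries, 1 array each, were compared by a log2 difference of at least 1. The script was tested on simulated data. Array number, not depth, limits the precision. All 37 listed genes are named, and of the other pathway genes those called, of which 1 is not reported here, with a few uncalled genes added as examples after their values were seen; marker genes are named where a list's values turn on them. The members and lists were chosen with earlier results of these data known. Alternatives were other scalings, normexp on median spot signals, other dim-probe filters, the mean of a gene's probes, no trend, the deposited matrix and leaving out each nodule; raising dim values and single Cxcl11 spots were added after seeing the data.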

Additional observations from a re-analysis of the deposited data

How the results depend on the processing

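Leaving out each nodule in turn gave 0 to 18 members lower than in the irradiated primary, 0 to 17 changed against the non-irradiated primary, and 0 to 9 and 0 to 20 changed genes of the rest of the pathway. The median against the irradiated primary then ran from -0.94 to -0.75. Without nodule 2, 2687 and 4982 of all features had an unadjusted p under 0.05 against the 2 primaries, and 0 passed limma's adjusted test. Without an intensity trend 6 members, not 10, were lower than in the irradiated primary. Under normexp the medians were -0.67 against the irradiated primary and 0.91 between the primaries. With probes well above background on all 5 arrays, the medians were -0.042 against the non-irradiated primary and 1.05 between primaries, and with the deposited matrix, which lacks the dim Ifit3, Oasl, Rsad2 and Cxcl11, they were -0.041 and 1.03. The mean of a gene's probes gave -0.12 against the non-irradiated primary. Between settings, directions of members turned for Oas1b, Oas2, Irf1 and Dhx58, while the probes of Usp18 also disagreed (0.63 and -0.26 against the non-irradiated primary). Oas1b against the irradiated primary gave 0.090 (median scaling), 0.039 (quantile) and 0.035 (deposited matrix), and -0.040 to 0.019 with each nodule left out. Oas2 gave 0.087, 0.101 and 0.065 in the same settings and -0.112 to 0.051 with each nodule left out, and against the non-irradiated primary 0.0090 (quantile) and -0.12 to 0.039 with each nodule left out. Irf1 gave 0.072 with the mean of its probes, and Dhx58 -0.068 with normexp and -0.085 to 0.204 with each nodule left out. Among called members, Ifi44, Gbp2, Usp18 and Gbp5 lost their call against the irradiated primary under at least 1 other processing (highest adjusted p = 0.0763), as did Mx2, Cxcl10, Parp14 and Cxcl11 against the non-irradiated one (Cxcl11 0.315 under normexp). The causes were not tested.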
